A study of Arabidopsis thaliana with 6 samples.

Results

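The comparison described here set the library made from 10 pg of total RNA against the 3 libraries made from 50, 75 and 100 pg of the same RNA, 4 of the 6 libraries of the series. All 4 were chosen by their labels, and a gene was then described by whether its level at 10 pg lay outside the range of the 3 larger amounts. A gene was called below or above the range when its level at 10 pg was at least 2-fold under the lowest or over the highest of the 3, on the log2 scale of its CPM plus 0.5 (CPM are counts scaled to a common library size, here with the TMM factors of edgeR). Of 33602 gene models, the 16714 with a mean of at least 1 CPM over the 4 libraries were tested.

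The study diluted 1 RNA sample, taken by laser microdissection from 20 sections of whole cotyledons of wild-type Arabidopsis thaliana seeds at 8 days after fertilization (6 siliques, 3 plants), to ask how little RNA a library could be made from. The labels give the tissue only as seed, at growth stage 6.30 and with no treatment. The 25 pg library is shown beside the 10 pg library where it helps, and the 5 ng library was not used. Per the study's methods libraries were sequenced at different dates, and the 100 pg library at both the first and the second. The study kept only the second run of the 100 pg library, from the date of the smaller amounts. The pairs sequenced for the 100 pg library used here equal in number those the study lists for it. All 4 libraries compared were therefore taken to be of the same sequencing date, and an effect of date was not tested. Each amount had 1 library, so no amount had a replicate. The 3 larger amounts are single libraries as well, and the spread between them is the only error available.

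The kit used (SMART-Seq v4) copies RNA from its poly(A) tail into cDNA and then amplifies the cDNA by PCR. A transcript of which no molecule is copied into cDNA cannot be recovered by the amplification. Reads of such a library carry no tag that marks the molecule they come from, so a read count is not a count of molecules.

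The 4 libraries held between 22403342 and 30781753 read pairs counted, with 26703077 at 10 pg. At 10 pg 15936 genes had at least 1 pair, against 18485, 19539 and 19266 at 50, 75 and 100 pg. The 100 pg library stood apart in its reads without a counted mate, 14.1% of its reads against 4.22 to 5.42% in the other 3. The markers of the embryo LEC1, FUS3, ABI3, ATML1 and PDF2 were all found in the 4 libraries. Of 8 endosperm markers, FWA, PHE1 and MYB115 had 0 pairs in all 4, and the other 5 were found in each of the 3 larger amounts. Of these 5, 1 was below the range, 3 were within 2-fold of it and 1 was above. The summed level of the list was 250 CPM at 10 pg against 122 to 202 CPM in the 3. Of 13 seed coat markers, TT10, STK and TT1 had 0 pairs in all 4. Only 4 reached the level to be tested, with 1 below the range, 2 within 2-fold of it and 1 above. The summed level of the 13 was 62.6 CPM at 10 pg against 81.0 to 100 CPM. The part of these cells in the results below was not tested.

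Past the 2-fold margin, the 10 pg library dropped or lowered many more genes than it raised. Of the 16714 genes tested, 4730 (28.3%) were below the range and 1843 (11%) above it, while 10141 (60.7%) lay in the range or within 2-fold of it. The genes below the range took only 0.904% of all pairs at 10 pg, against 9.74, 9.08 and 10.8% at 50, 75 and 100 pg. The genes above it took 11.2% at 10 pg, against 3.49, 3.71 and 3.75%. A gene below the range had a median of 4 pairs at 10 pg, against 397, 284 and 478 pairs at 50, 75 and 100 pg, so most of these genes were close to absent rather than moderately lower.

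edgeR's quasi-likelihood test of 10 pg against the mean of the 3 called 2367 genes lower (14.2%) and 616 higher (3.69%) at a Benjamini-Hochberg adjusted p under 0.05. All of them were also outside the range. The filter used the mean over all 4 libraries, so some genes were tested only through their level at 10 pg. The genes called higher include such genes, AT3G45390 and NAC016 among them, and for these the call rests on the filter. This test rests on 2 residual degrees of freedom, assumes that the lone 10 pg library varies as the other 3 do, and compares these libraries and not the amounts. The counts moved with the 75 pg library, since without it 1301 genes were called lower and 238 higher. They moved with the scaling and the tool as well, to 281 higher with library totals, 302 higher with upper-quartile factors, and 4683 lower and 1061 higher in DESeq2's Wald test. At the edge of the margin, AT1G27750 was just counted as below, with 5.82 CPM at 10 pg against 18.2, 12.1 and 16.4 CPM, and AT5G48590 was just not, with 0.355 CPM against 2.79, 19.0 and 1.21 CPM. On the upper side AT3G18790 was just counted as above, with 55.7 CPM against 27.6, 16.3 and 27.3 CPM, and AT2G24645 was just not, with 73.8 CPM against 22.7, 36.7 and 16.4 CPM.

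The 25 pg library, set against the same 3 libraries, had 3113 of 16851 genes below the range (18.5%) and 1098 above it (6.52%). edgeR's quasi-likelihood test called 327 lower (1.94%) and 12 higher (0.0712%). Both comparisons share the 3 libraries, so they are given side by side only. The median log2 ratio over all genes tested was -0.38 at 10 pg and -0.15 at 25 pg. With scaling by the library total alone, that median was -0.72 at 10 pg, 5117 genes were below and 1242 above, and the genes below made 80.5% of those outside the range against 72.0% with TMM. That share was 86.5% with a 4-fold margin but 55.9% with no margin. Among genes with a mean of at least 10 CPM the share was 63.15%, and there the median log2 ratio was 0.14. All changes given here are relative to the TMM scale.

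**Figure D1:**
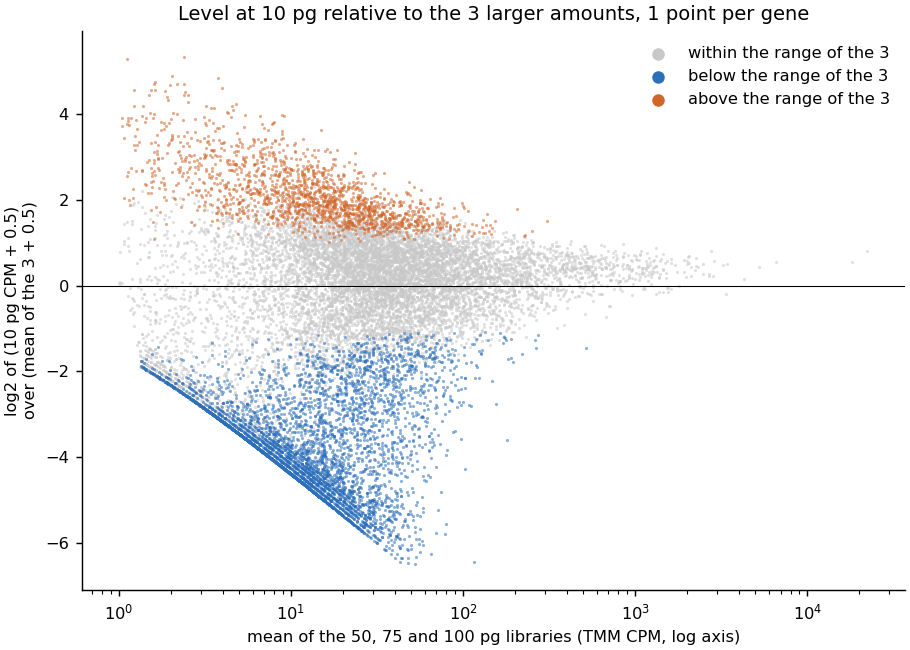
Each point is 1 gene with a mean of at least 1 CPM in the 3 larger amounts. The x axis gives that mean (TMM CPM, log axis) and the y axis the log2 ratio of the 10 pg level to it, both plus 0.5 CPM. The cloud is wide below 100 CPM, with a lower edge set by genes with 0 or a few pairs at 10 pg, and narrows to a log2 SD of 0.34 at 300 CPM or more.

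From 3 CPM upwards, the share of genes below the range at 10 pg fell with abundance. It was 42.5% (1483 of 3491; exact Clopper-Pearson 95% interval 40.8 to 44.1%) among genes with a mean of 3 to 10 CPM in the 3 larger amounts. The share was 37.7% (36.5 to 39.0%) at 10 to 30 CPM, 19.2% (18.0 to 20.4%) at 30 to 100 CPM and 3.72% (2.69 to 4.99%) at 100 to 300 CPM. At 300 CPM or more, 477 of 479 genes lay in the range or within 2-fold of it. At 1 to 3 CPM only 15.3% of 1466 genes (13.5 to 17.3%) were below, where the call is limited: with 0.5 CPM added to each level, a gene under 0.5 CPM in any of the 3 cannot be 2-fold below the range. The intervals treat genes as independent and cover counting error only, because PCR copies of a molecule are counted as separate pairs.

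The share above the range was 12.2% (10.6 to 14.0%) at 1 to 3 CPM and fell from the next class upwards, with 13.8% (12.7 to 15.0%) at 3 to 10 CPM, 12.4% (11.6 to 13.3%) at 10 to 30 CPM, 7.05% (6.30 to 7.86%) at 30 to 100 CPM and 2.12% (1.36 to 3.14%) at 100 to 300 CPM. Genes below and genes above the range were thus found in each of these classes. A further 160 genes had a mean under 1 CPM in the 3 and were tested only because of their level at 10 pg, so their 144 calls above the range were fixed by the filter. These 144 are part of the 1843 genes above the range, and so of the 11% given for all genes.

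From 10 CPM upwards the spread of the log2 ratio over genes fell with abundance. The range of the 3 given beside it is taken within each gene, so the measures are unlike and their sizes are not compared. At 10 to 30 CPM the log2 ratio had an SD of 2.46 and quartiles of -3.85 and 0.86, while the highest and lowest of the 3 larger amounts differed by a median of 1.20. At 30 to 100 CPM the SD was 1.74 beside a median range of 0.82, and at 300 CPM or more it was 0.34 beside 0.57. The SD over genes does not hold a shift common to them, and at 300 CPM or more the median log2 ratio was 0.39 (quartiles 0.17 and 0.58), so most of these genes were higher at 10 pg than the mean of the 3.

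At 25 pg the shares below the range were 30.4% (28.9 to 32.0%) at 3 to 10 CPM, 25.3% (24.2 to 26.4%) at 10 to 30 CPM, 10.5% (9.61 to 11.4%) at 30 to 100 CPM and 1.45% (0.847 to 2.31%) at 100 to 300 CPM. The shares above were 9.79, 5.37, 1.35 and 0% in the same classes. In each of these 4 classes the 25 pg share lay under the 10 pg share, on both sides of the range. At 1 to 3 CPM the share below was 10.6% (9.05 to 12.2%) at 25 pg, under that at 10 pg, and the share above was 13.4% (11.8 to 15.3%), over that at 10 pg, with intervals that overlap.

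**Figure D2:**
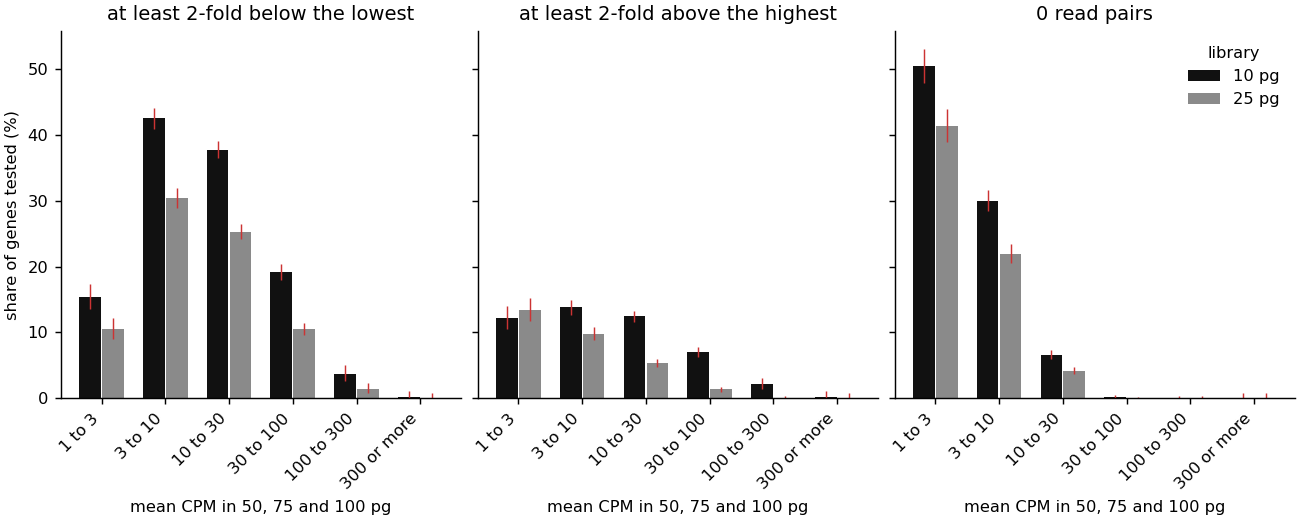
Share of genes tested (y axis, %) that were below the range, above it or without any read pair, by mean CPM in the 50, 75 and 100 pg libraries (x axis), for the 10 pg (black) and 25 pg (grey) libraries; red lines are exact 95% intervals. At 10 pg the share below the range is 42.5% at 3 to 10 CPM and 3.72% at 100 to 300 CPM.

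Complete loss was common only among weakly expressed genes. Of 16888 genes with at least 1 pair in each of the 3 larger amounts, 2201 had 0 pairs at 10 pg (13%; interval 12.5 to 13.5%) and 1556 had 0 pairs at 25 pg (9.21%). Among these detected genes the share at 0 in the 10 pg library was 45.2% at 1 to 3 CPM, 28.3% at 3 to 10 CPM, 6.60% at 10 to 30 CPM and 0.235% (10 of 4258) at 30 to 100 CPM. None of the 1130 genes at 100 to 300 CPM and none of the 479 above was at 0, and a count of 0, taken to allow up to 3 genes, leaves shares of up to 0.265 and 0.626%.

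The 6 most abundant of the genes lost at 10 pg were APP1 (aminopeptidase P1), AT1G54520, BSK6 (a kinase), UBC33 (a ubiquitin-conjugating enzyme), AT1G19110 and AT5G37010. APP1 had 0 pairs at 10 pg against 1693, 917 and 1080 pairs at 50, 75 and 100 pg. BSK6 had 0 pairs against 948, 1360 and 809 pairs. All 3 larger amounts were thus well covered for both genes, and a floor of 3 pairs at 10 pg puts APP1 at least 239-fold and BSK6 at least 179-fold lower than the lowest of them. The same 6 genes were not all lost at 25 pg: UBC33 had 2 pairs there and the other 5 had between 146 and 231 pairs, still below the range. HXK2 (hexokinase 2), SR45a and AT5G13090, named after their values were seen, were also genes of 30 CPM or more with 0 pairs at 10 pg. HXK2 had 0 CPM at 10 pg against 31.4, 33.2 and 28.9 CPM.

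The reverse case asks for 0 pairs in all 3 larger amounts at once, so its count is not on like terms with that of loss. At 25 pg 291 genes were of this kind, 65 of them with at least 10 pairs and 5 with at least 10 CPM. At 10 pg 240 genes had pairs and none in the 3 larger amounts, 31 of them with at least 10 pairs and 9 with at least 10 CPM. The highest was AT3G45390, a lectin receptor kinase gene, with 1735 pairs (77.0 CPM) at 10 pg and 0 pairs at 25, 50, 75 and 100 pg. NAC016, a NAC transcription factor gene, had 901 pairs (40.01 CPM) at 10 pg and also 0 in the other 4 libraries. These 2 genes were at least 612-fold and 318-fold higher at 10 pg than a floor of 3 pairs in any of the 3. AT3G27500, DDF1 (a DNA-binding protein of the AP2/ERF class), AT2G35640 and AT3G61571 had 350, 327, 290 and 287 pairs at 10 pg, and 0 in the other 4 libraries. All 6 were thus seen in the 10 pg library alone, although the 5 libraries held the same RNA.

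Among genes with a mean of at least 50 CPM over the 4 libraries, DRB3 (a double-stranded RNA-binding protein) lay furthest below the range, with 0.844 CPM at 10 pg against 118, 95.1 and 136 CPM. COP9, which encodes subunit 8 of the COP9 signalosome, had 0.932 CPM against 82.2, 61.0 and 91.6 CPM. MFP2, a multifunctional enzyme of peroxisomal fatty acid breakdown, had 1.42 CPM against 53.6, 66.4 and 95.3 CPM. In each case the 3 larger amounts lay within 2-fold of each other and the 10 pg library far under them. The log2 fold changes in edgeR's fit were -7.10, -6.38 and -5.65 for DRB3, COP9 and MFP2. These genes were ranked on the same values, so no test is given. AT4G11380 (an adaptin), AT5G41950 and AT5G47310 completed the 6, at 58.7-fold, 49.4-fold and 29.7-fold under the lowest of the 3. All 6 were within 2-fold of the range at 25 pg, where DRB3 had 3823 pairs against 19 at 10 pg.

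The 6 genes furthest above the range at that abundance were IQD6, TOR, AT1G17145, AT4G10360, HBT and AT3G48760. IQD6, a gene of the calmodulin-binding IQ-domain family, had 191 CPM at 10 pg against 5.54, 19.6 and 19.96 CPM. TOR, the kinase that couples growth to nutrient supply, had 168 CPM against 26.4, 21.8 and 7.20 CPM. HBT, a CDC27 subunit of the anaphase-promoting complex, had 206 CPM against 25.6, 9.66 and 35.6 CPM. The 10 pg library was the highest by 9.56-fold, 6.35-fold and 5.79-fold over the next library. These genes were ranked on that distance, and with means of 15.0, 18.5 and 23.6 CPM in the 3 larger amounts they reached the 50 CPM asked for only through the 10 pg library, so their values are a description and no test is given. At 25 pg IQD6 and TOR were within 2-fold of the range and HBT was below it, with 44 pairs against 4644 at 10 pg.

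**Figure D3:**
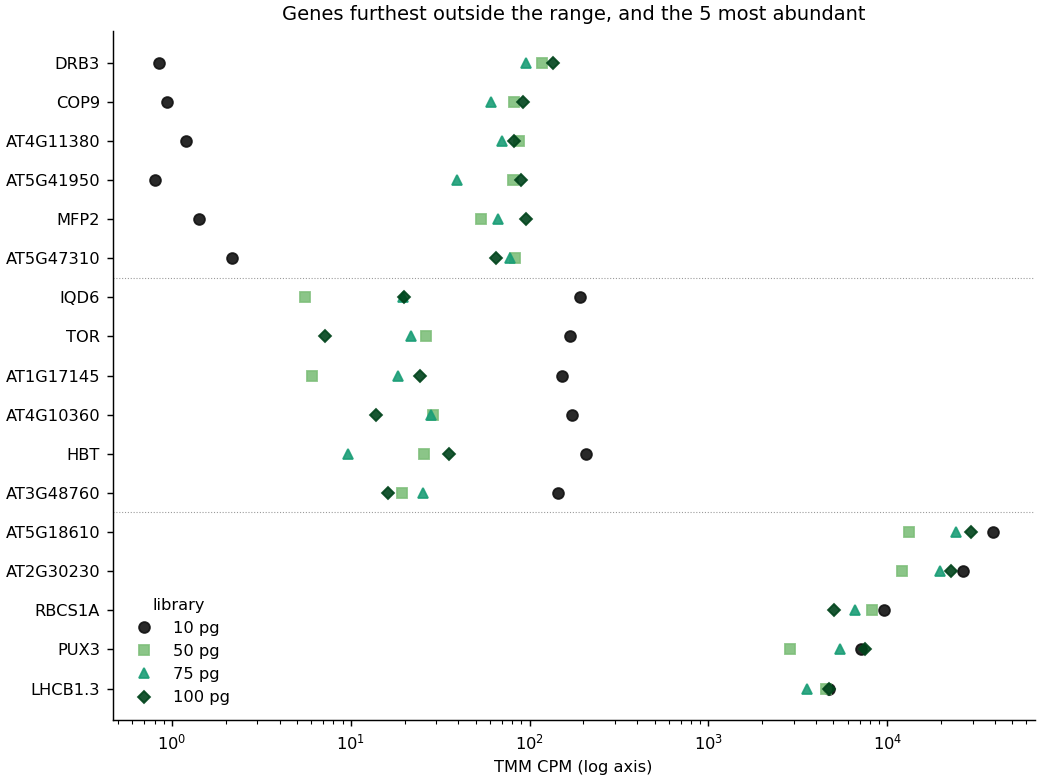
TMM CPM (x axis, log scale) in the 10, 50, 75 and 100 pg libraries for the 6 genes furthest below the range (top), the 6 furthest above (middle) and the 5 most abundant (bottom); each symbol is 1 library. DRB3 sits at 0.844 CPM at 10 pg and at 95.1 to 136 CPM in the others, while the 5 most abundant genes stay within 2-fold of the range.

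The top of the abundance range was kept. RBCS1A, which encodes a small subunit of Rubisco, reached 9635 CPM at 10 pg against 8173, 6618 and 5035 CPM. LHCB1.3, a chlorophyll-binding protein of the photosystem II antenna, had 4743 CPM against 4537, 3560 and 4709 CPM. Both 10 pg values lay within 2-fold of the range. The 2 genes of 300 CPM or more outside it, named after their values were seen, were AT5G47030 and HSP81-3. AT5G47030, a subunit of the F1 ATP synthase, had 875 CPM at 10 pg against 253, 379 and 295 CPM, 2.31-fold over the highest. HSP81-3, a member of the HSP90 chaperones, had 189 CPM against 470, 415 and 674 CPM, 2.20-fold under the lowest. Both were picked on these values, so no test is given.

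The 2 gene models with the most pairs in all 4 libraries, and others of high rank, hold a long run of T or A in their transcript. These models are shown because they take a large share of each library. The sequences are of the RefSeq transcripts on the TAIR10.1 assembly, 5′ to 3′, with 12 bases on each side in lower case and the run in capitals.

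AT5G18610 (protein kinase gene, chr5:6192327-6195753, + strand, run at transcript bases 1895 to 1931): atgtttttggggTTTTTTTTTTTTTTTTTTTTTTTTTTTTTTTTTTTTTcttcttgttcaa
AT2G30230 (chr2:12897054-12898172, + strand, run at transcript bases 695 to 730): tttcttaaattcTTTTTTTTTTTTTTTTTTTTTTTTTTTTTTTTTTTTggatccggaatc
AT2G23880 (chr2:10165992-10170262, - strand, run at transcript bases 3161 to 3192): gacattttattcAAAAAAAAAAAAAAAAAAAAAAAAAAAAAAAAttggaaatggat

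AT5G18610 had 38840 CPM at 10 pg against 13210, 24180 and 29550 CPM, and AT2G30230 had 26580 CPM against 12070, 19800 and 22630 CPM. In both the 50 pg library was the lowest and the 10 pg library the highest, within 2-fold of the range. Of 11 gene models with a run of at least 30 A or T, 10 were tested and all 10 were within 2-fold of the range. All 10 lay over 300 CPM in each of the 3 larger amounts. Of all genes at 300 CPM or more, 477 of 479 were within 2-fold of the range, so nothing particular to such runs is read from the count. Together the 11 models with a run took 7.11% of all pairs at 10 pg, against 3.57, 6.50 and 7.93% at 50, 75 and 100 pg. SHP1, a MADS-box gene of fruit and ovule development, was among them with 41300 pairs at 10 pg. Without them, 4757 genes were below the range and 1847 above.

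Transcript length was weighed at matched abundance, since long transcripts collect more pairs at the same number of molecules. Genes below the range had a median length of 1657 bases, those above 1494 and those within 2-fold of the range 1471. At a matched 30 to 100 CPM, the share below the range was 8.80% (7.03 to 10.8%) for transcripts of 500 to 1000 bases, 18.3% (16.2 to 20.6%) for 1000 to 1500, 24.5% (21.8 to 27.3%) for 1500 to 2000 and 25.9% (22.8 to 29.2%) for 2000 to 3000 bases. None of 57 transcripts under 500 bases was below the range there (upper limit 6.27%). At 4000 bases or more the share was 20.9% (14.4 to 28.8%), so it did not go on growing.

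The pattern was another when abundance was taken per kilobase of transcript. At 3 to 10 CPM per kb the share below was 39.2% (35.1 to 43.4%) for 500 to 1000 bases, 48.7% (45.9 to 51.6%) for 1500 to 2000 and 29.96% (24.2 to 36.2%) for 4000 bases or more. At 10 to 30 CPM per kb the share below was 35.7% (32.4 to 39.2%) for 500 to 1000 bases, 33.3% (30.8 to 35.9%) for 1500 to 2000, 20.6% (15.3 to 26.8%) for 3000 to 4000 and 13.8% (6.15 to 25.4%) for 4000 bases or more. Over 10 to 100 CPM per kb, 17.3% of 301 transcripts of at least 3000 bases (13.2 to 22.0%) and 22.4% of 1925 transcripts under 1000 bases (20.6 to 24.4%) were below the range, and the intervals overlap. Over 10 to 100 CPM the shares were 30.7% (27.9 to 33.6%) in long and 18.3% (16.6 to 20.2%) in short transcripts. At matched CPM the long transcripts thus had the larger share below the range. Per kilobase they had the smaller share, by an amount that varied with the class. At 10 to 30 CPM per kb the shares were 19.1% (14.5 to 24.4%) in long and 35.4% (32.2 to 38.6%) in short transcripts. At 3 to 10 CPM per kb they were 35.2% (31.7 to 38.9%) and 37.6% (33.9 to 41.5%). There the median level was 21.0 CPM in long and 4.08 CPM in short transcripts, the latter nearer the level where the call is limited. Of the genes tested in that class, 4.085% of long and 34.9% of short transcripts had 0 pairs at 10 pg. Over 10 to 100 CPM per kb the shares with 0 pairs were 0% in long and 4.52% in short transcripts. The wide class mixes abundances, and overlap of its intervals does not show equal shares. At 25 pg the shares over 10 to 100 CPM per kb were 15.1% (11.3 to 19.5%) in long and 10.7% (9.35 to 12.2%) in short transcripts, the other order. In that class at 10 pg, the share in short transcripts was 28.1% without the 100 pg library. Without the 75 pg library the share was 24.2% in long and 23.1% in short ones, which turns their order. Shares above the range over 10 to 100 CPM per kb were lower in long transcripts, with 3.99% (2.08 to 6.86%) in long and 11.0% (9.60 to 12.4%) in short ones.

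**Figure D4:**
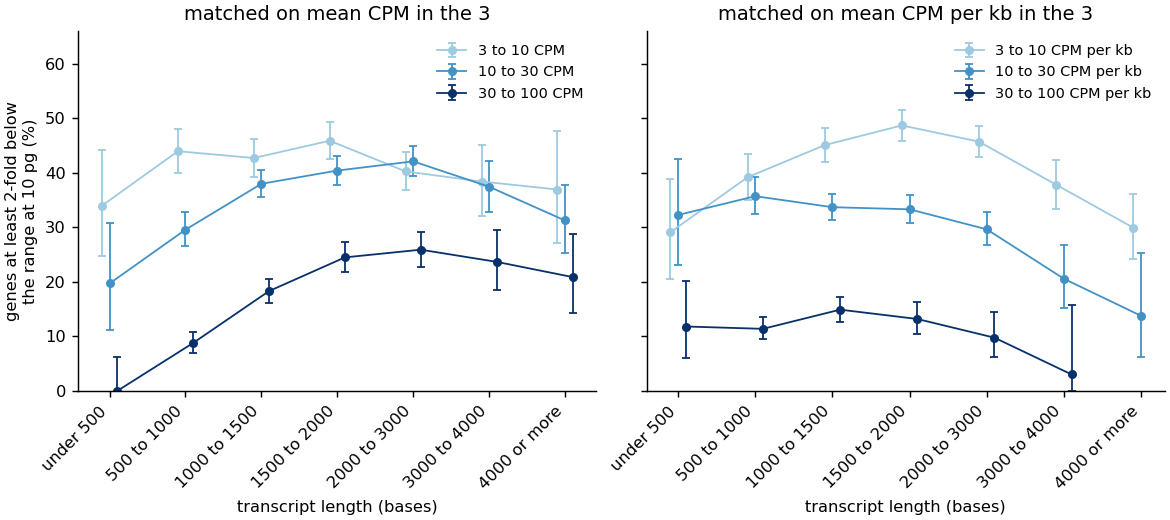
Share of genes at least 2-fold below the range at 10 pg (y axis, %) by transcript length (x axis, bases), for classes matched on mean CPM (left) or on mean CPM per kilobase (right) in the 50, 75 and 100 pg libraries; bars are exact 95% intervals. At 30 to 100 CPM the share is 8.80% for 500 to 1000 bases and 25.9% for 2000 to 3000 bases, while at 10 to 30 CPM per kb it is 35.7% for 500 to 1000 bases and 13.8% for 4000 bases or more.

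Of the 4 longest and the 4 shortest nuclear transcripts with a mean of at least 10 CPM, none was below the range and 1 was above. AT1G67120, a midasin of 16347 bases, had 45.6 CPM at 10 pg against 15.9, 27.6 and 29.0 CPM, and BIG, a protein of auxin transport with a transcript of 15465 bases, had 32.7 CPM against 59.8, 48.4 and 65.7 CPM. Both were within 2-fold of the range, as were AT5G30269 and AT5G23110, of 14591 and 14283 bases. AT2G40205, a ribosomal protein L41 gene of 116 bases, had 628 CPM against 473, 518 and 124 CPM, so that the 100 pg library stood apart and not the 10 pg one. MIR775, a microRNA precursor of 123 bases, had 43.8 CPM against 6.92, 10.08 and 2.10 CPM and was above the range. It reached a mean of 10 CPM only through the 10 pg library, so no test is given. AT3G08520 and AT1G53542, of 78 and 186 bases, were within 2-fold of the range.

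Other features of the transcripts differed little over all genes tested. The median GC content was 41.6% below the range, 41.5% above it and 41.7% within 2-fold of it, and the median number of exons was 5 in each. At a matched 30 to 100 CPM the median number of exons was 7 below the range, 5 within 2-fold of it and 5 above it. At 10 to 30 CPM it was 6 in each. These come from RefSeq transcripts, which were matched for 99.2% of the genes tested but had the length of the authors' model for only 2965 of them. A second count of the same reads differed more: of the reads on genes of 10 to 30 CPM below the range, 14.0% at 10 pg had no counted mate, against 3.06, 3.85 and 8.57% at 50, 75 and 100 pg. For genes above the range at that abundance the share was 2.66% at 10 pg against 3.44, 4.20 and 9.92%. Since pair counts chose these genes, the shares are a description; with single reads in place of pairs, 4670 genes were below the range and 1846 above.

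Lists of abundant genes had few members outside the range. Of the light-harvesting genes 0 of 20 were below the range and 1 above, and of the nuclear photosystem subunit genes 0 of 25 were outside it, against 28.3% below and 11% above over all genes. The median levels of these lists were 383 and 371 CPM, where the share of all genes below the range was 0.209%. LHCB2.2 was the one above, with 169 CPM at 10 pg against 60.2, 50.0 and 78.0 CPM. It was 2.16-fold over the highest of the 3 and was named for that distance, so no test is given. Of 18 Calvin cycle genes, at a median of 193 CPM, 2 were below the range (11.1%) and 0 above. Of all genes at 100 to 300 CPM 3.72% were below and 2.12% above, and nothing particular to the list is read from 2 genes. The 2 below were FBA1 (a chloroplast aldolase), with 7.68 CPM against 76.0, 74.4 and 140 CPM, and PGK1 (phosphoglycerate kinase), with 122 CPM against 273, 251 and 290 CPM. PGK1 was only 2.07-fold under the lowest of the 3. Both genes are named for lying outside the range, so no test is given.

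Of 32 genes of fatty acid and oil synthesis, at a median of 212 CPM, 2 were below (6.25%) and 1 above (3.125%). Of all genes at 100 to 300 CPM 3.72% were below and 2.12% above. FAD2, the main oleate desaturase of the endoplasmic reticulum, had 875 CPM at 10 pg against 978, 667 and 810 CPM. FATA2, an acyl-carrier protein thioesterase, had 260 CPM against 59.4, 47.7 and 85.0 CPM and was above the range, while PDAT, which transfers an acyl chain to make oil, had 1.82 CPM against 22.6, 18.8 and 31.7 CPM and was below it. For fatty acid breakdown, at a median of 32.0 CPM, 6 of 23 genes were below (26.1%) and 3 above (13.0%). These shares were near the 28.3% and 11% of all genes. MFP2 was the furthest below and PNC2, a peroxisomal nucleotide carrier, the furthest above, with 156 CPM against 38.0, 42.0 and 9.27 CPM. KAT2, the main thiolase of the pathway, had 225 CPM against 224, 193 and 237 CPM and lay in the range.

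Of 17 reference genes often used to scale expression, at a median of 197 CPM, 16 were within 2-fold of the range. So were 94.2% of all genes at 100 to 300 CPM. EF1A had 2945 CPM at 10 pg against 3186, 2839 and 4112 CPM. YLS8 was above, with 606 CPM against 286, 288 and 178 CPM, which is 2.10-fold over the highest of the 3. It was named for that distance, so no test is given. Genes of cytosolic ribosomal proteins, at a median of 451 CPM and from 1.27 to 2108 CPM, had 7 of 80 below the range (8.75%) and 5 above. Of all genes at 300 CPM or more only HSP81-3 was below, so these 7 lay under that level. Over all genes tested 28.3% were below, and nothing particular to ribosomal proteins is read from the count. Of the 90 chloroplast genes tested, at a median of 28.0 CPM and a median length of 366 bases, 9 were below (10.0%) and 2 above. At 10 to 30 CPM 37.7% of all genes and 19.7% (11.2 to 30.9%) of those under 500 bases were below. Of 26 mitochondrial genes, at a median of 2.41 CPM, 5 were below (19.2%) and 5 above (19.2%), against 28.3% and 11% of all genes.

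Of the lists of regulators, at medians of 22.0 to 35.3 CPM, all but that of chromatin remodelling and Polycomb had members on both sides. Of 45 cell cycle genes 13 were below and 6 above, of 22 DNA replication genes 6 and 1, and of 34 genes of RNA silencing and DNA methylation 9 and 6. Of 23 genes of chromatin remodelling and Polycomb 8 were below and none above, and of 10 genes around the TOR and SnRK1 kinases 4 and 1. Over all genes the share below was 37.7% at 10 to 30 CPM and 19.2% at 30 to 100 CPM, and nothing particular to these pathways is read from their counts.

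In some complexes, chosen after their values were seen because they were split, subunits lay on both sides of the range, while most genes of DNA replication (15 of 22) and of the COP9 list (10 of 13) were within 2-fold of it. Of the genes in these examples, TOR, MCM5, COP9, CSN6B and DCL4 were named by rule and the others after their values were seen. The replicative helicase is a ring of MCM2 to MCM7. MCM4 had 4.40 CPM at 10 pg against 50.8, 34.7 and 81.7 CPM, while MCM5 had 168 CPM against 54.9, 58.2 and 43.5 CPM. At 10 pg MCM4 was lower (log2 fold change -3.66 in edgeR's fit) and MCM5 higher (log2 fold change 1.69). These genes were picked on the same values, so no test is given. MCM2 was lower too, and MCM3, MCM6 and MCM7 were within 2-fold of the range.

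TOR acts with LST8 and RAPTOR. LST8-1 had 11.1 CPM at 10 pg against 55.1, 76.2 and 57.5 CPM, and RAPTOR1 had 5.11 CPM against 23.1, 15.5 and 39.0 CPM, so both were below the range where TOR was above it. LST8-1 and RAPTOR1 were named after their values were seen and TOR for its distance above the range, so no test is given. Of the 13 genes of the COP9 signalosome and light repressors, COP9 and CSN3 were below the range (15.4%, against 28.3% of all genes) and CSN6B was above it (7.69%, against 11%), with 101 CPM at 10 pg against 26.8, 17.9 and 16.2 CPM.

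Genes of small RNA synthesis lay on both sides too. DCL4, the Dicer that makes trans-acting small RNAs, had 62.2 CPM at 10 pg against 1.58, 0.672 and 4.93 CPM, which is 12.6-fold above the highest of the 3. DCL3, the Dicer of the DNA methylation pathway, had 0 CPM at 10 pg against 5.85, 4.49 and 3.63 CPM. DCL4 reached the mean of 10 CPM asked for by the naming rule only through the 10 pg library. DCL3 was named after its value was seen, so the values of both are a description and no test is given. A list read at 10 pg alone would hold DCL4 and lack DCL3, where all 3 larger amounts held both at a low level.

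Of 28 regulators of the embryo tested, 19 were within 2-fold of the range, 5 below (17.9%) and 4 above (14.3%). Over all genes 28.3% were below and 11% above, and nothing particular to these regulators is read from the counts. FUS3, a master regulator of seed maturation, had 180 CPM at 10 pg against 212, 168 and 116 CPM, and PDF2, an epidermal homeodomain factor, had 151 CPM against 220, 202 and 301 CPM. TMO5, a factor of vascular initiation, had 0 pairs at 10 pg and also 0 at 25 pg, against 807, 298 and 312 pairs in the 3. KAN2, a factor of the lower leaf side, had 61.3 CPM against 2.65, 11.3 and 13.6 CPM. It reached the mean of 10 CPM of the naming rule only through the 10 pg library, so no test is given. MUTE, a switch of the stomatal lineage named after its value was seen, had 0 CPM at 10 pg against 1.55, 4.07 and 2.36 CPM, while ICE1 of the same lineage had 384 CPM against 258, 343 and 415 CPM.

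Of 29 wax and cutin genes 23 were within 2-fold of the range, 4 below (13.8%) and 2 above (6.90%). Of 21 genes of plastid transcription 12 were within, 7 below (33.3%) and 2 above (9.52%). Over all genes 28.3% were below and 11% above, and at 30 to 100 CPM, where both medians lay, 19.2% were below. Nothing particular to these lists is read from the counts. LTPG1, a lipid transfer protein of the cuticle, had 1689 CPM at 10 pg against 1564, 1339 and 907 CPM. MYB94, an activator of wax genes, had 0.622 CPM against 45.7, 28.2 and 19.5 CPM, while GPAT4, an acyltransferase of cutin synthesis, had 215 CPM against 59.4, 59.3 and 51.0 CPM. MYB94 and GPAT4 were named for their distance from the range, so no test is given. The plastid sigma factor SIG2 had 4 pairs at 10 pg against 594, 587 and 656 pairs, and FSD3, an iron superoxide dismutase of the plastid nucleoid, had 310 CPM against 105, 104 and 55.9 CPM.

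**Figure D5:**
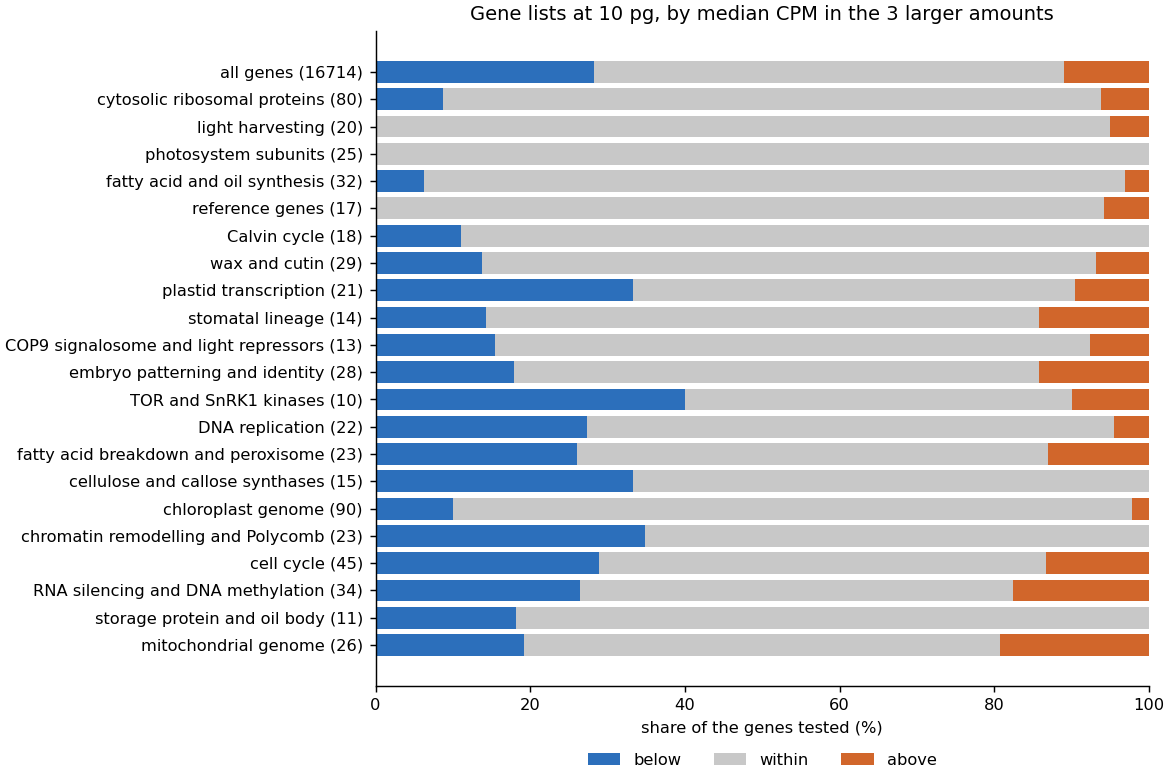
Share of the tested genes of each list (x axis, %) that were below the range at 10 pg, within 2-fold of it or above it, for lists with at least 10 genes tested, with the number tested in brackets. Lists are ordered by their median CPM in the 3 larger amounts, highest at the top under all genes (28.3% below); light-harvesting genes have 0 of 20 below and chromatin genes 8 of 23.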

How the data were processed

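The deposited files hold, per gene model, raw counts of read pairs and of single reads. Per the study's methods, the authors trimmed paired-end reads of 100 bases, discarded ribosomal ones and mapped the others by local Bowtie2 alignment onto TAIR10 transcripts, 1 model per gene, dropping multi-hits. The submitters' processing notes name TopHat2 as well. The libraries are unstranded, so overlapping genes cannot be told apart, and near-identical copies lose reads.

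Pair counts were scaled to CPM with TMM factors over the 4 libraries and filtered at a mean of 1 CPM. They were tested with edgeR 4.0.16 in R 4.3.3 (glmQLFit, glmQLFTest), with DESeq2 1.42.0 as an alternative. Intervals came from SciPy 1.17.1, tables from pandas 2.3.3 (Python 3.11.15, NumPy 2.4.6) and plots from matplotlib 3.10.9. The margin and test were tested on simulated data. A count of 0 was given a floor of 3 pairs per library, which is 0.133 CPM at 10 pg.

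The comparison, the 20 gene lists (457 entries) and 3 further lists by annotation were chosen with earlier results of these data known. Genes were named by rule: the 6 furthest below and above the range at a mean of 50 CPM over the 4 libraries, the 6 most abundant with 0 pairs at 10 pg or in all 3, the 4 longest and shortest at 10 CPM, the 5 most abundant, and per list the most abundant and those furthest outside. Other genes are said to be named after their values were seen. Names, coordinates and transcript features are of the RefSeq annotation of TAIR10.1. Alternatives concerned normalization, filters, the pseudocount, the margin, the libraries included, depth, organelle genes, models with an A or T run of 30 bases, the tool and the abundance measure; single reads in place of pairs were added after seeing the data. A gene among those with 0 pairs at 10 pg is not reported here.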

Additional observations from a re-analysis of the deposited data

How the results depend on the processing

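The counts below and above the range kept within 1.5 times of their values under most alternatives. The exceptions were 2476 genes below with a mean of at least 10 CPM, and 5563 genes above with no margin and 515 with a 4-fold margin. With no margin 7045 genes were below, so the genes below made only 55.9% of those outside the range. Genes with 0 pairs at 10 pg numbered 1387 when at least 10 pairs were asked in each larger amount and 4660 when under 10 pairs counted as lost. DESeq2's Wald test called 4683 genes lower and 1061 higher. edgeR called 281 genes higher with scaling by the library total and 302 with upper-quartile factors. Of the shares below the range, that of long transcripts was 35.9% with no margin, 9.30% with a 4-fold margin and 30.7% with abundance as CPM. That of short transcripts was 25.9% with the library total, 25.2% with upper-quartile factors, 16.1% with a mean of at least 10 CPM, 32.5% with no margin, 18.6% with a 4-fold margin and 18.3% with abundance as CPM. The order of long and short was thus reversed with no margin, with a mean of at least 10 CPM (17.3 and 16.1%), at matched CPM and without the 75 pg library. With 1 of the 3 larger amounts left out in turn, 5082 to 5689 genes were below, 2222 to 2363 above and 2472 to 2920 at 0. edgeR then called 1301 to 3331 lower and 238 to 906 higher, fewest without the 75 pg library. The shares were 18.6 to 24.2% in long and 21.9 to 28.1% in short transcripts. Leaving out the 10 pg library leaves no comparison. No paired analysis was possible because each amount has 1 library.

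With 1 library per amount, no result separates the amount from the single library made from it. Depth differed little between the libraries: thinned to the smallest total, 4733 genes were below and 1826 above.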
